A study of Bos taurus with 15 samples.

Results

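The genes described here encode the enzymes of glycolysis, of lactate and pyruvate metabolism and of the citrate cycle, with the kinases that regulate pyruvate dehydrogenase. They were taken by name from a list of 43 genes, and 38 of them had at least 1 probe set among the 9155 genes that the platform annotation named. Of these, 16 of 17 belonged to glycolysis, 2 of 2 to lactate dehydrogenase, 8 of 9 to pyruvate oxidation and carboxylation, and 12 of 15 to the citrate cycle. HK2, PDK1, IDH3B, DLST and MDH1 matched no probe set and are not analysed here. For the 13 genes with several probe sets, the one with the highest mean signal over all arrays was used, which left 22 other probe sets to be compared with it.

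Transcripts were measured on 15 Affymetrix Bovine Genome arrays from Bos taurus oocytes and embryos of 8 stages: 3 arrays of oocytes, 2 of 1-cell embryos, 1 each of 2-cell, 4-cell, 8-cell and 16-cell embryos, 3 of morulae and 3 of blastocysts. The replicates are biological ones according to the labels. Total RNA went through 3 rounds of amplification before it was hybridized. The labels describe ovarian oocytes that were matured with their cumulus cells, fertilized in vitro, freed of cumulus by vortexing and cultured in a defined fluid that contained pyruvate and amino acids. This text stands on every array, with no further treatment, and it gives no breed, nor whether the oocytes hybridized had been matured or how many oocytes or embryos made up an array. Each array is a bulk sample, so fewer cells of a type and less RNA per cell cannot be told apart.

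Glycolysis splits glucose into pyruvate in the cytosol. Pyruvate is then reduced to lactate by lactate dehydrogenase, or carried into the mitochondrion, where the pyruvate dehydrogenase complex turns it into acetyl-CoA for the citrate cycle. Bovine and mouse embryos of the first cleavages are known to use mainly pyruvate and lactate, and their use of glucose grows towards the blastocyst.

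Each value is the deposited signal, an intensity on a linear scale that was scaled between arrays in a way not given in the sources used here, so it shows a share of the amplified RNA and not an amount per embryo. Changes are differences of stage means of log2(signal + 16), which understate changes of low signals. A gene passed where limma's adjusted p was under 0.05 over all 24016 probe sets tested. Signals of different probe sets are not compared with each other, and where background ends is not known.

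The arrays differed in ways the stages do not explain. Bacterial control transcripts that are added to RNA before labelling gave signal on oocyte arrays 2 and 3, 1-cell array 2, morula array 3, blastocyst array 3 and all 4 single arrays, and were near background on the other 6. Transcripts labelled over their whole length give a middle probe set close to the 3' one. Middle over 3' of GAPDH was 0.0977, 0.237 and 0.0374 in oocytes, 0.625, 0.367 and 0.1 in morulae and 0.544, 0.643 and 0.339 in blastocysts. For cyclophilin it was 0.0607, 0.102 and 0.0141 in oocytes, 0.273, 0.322 and 0.178 in morulae and 0.766, 0.499 and 0.525 in blastocysts. That of eIF-4E was 0.0388, 0.0964 and 0.235 in oocytes, 0.0636, 0.0842 and 0.887 in morulae and 0.049, 0.0547 and 0.163 in blastocysts. The cyclophilin ratios of all morula and blastocyst arrays and the GAPDH ratios of all blastocyst arrays lay above those of the oocytes. The GAPDH ratios of morulae and the eIF-4E ratios of both stages overlapped those of the oocytes. Markers of the oocyte summed to 1035 to 1657 on morula arrays against 38094 to 61803 on oocyte arrays, and markers of the blastocyst epithelium to 13141 to 33845 against 390.2 to 1758, over 9 and 8 genes. The 14 cumulus and granulosa markers summed to 9347 to 10849 on morula and 6445 to 7049 on oocyte arrays. Most of the morula sums was HAS2, at 8972, 8622 and 9257 in morulae against 1776, 1571 and 1310 in oocytes. The higher sums in morulae thus rested on HAS2. STAR, VCAN and TNFAIP6 were lower in morulae, STAR at 78.02, 94.98 and 906.58 against 2537, 2958 and 2640 in oocytes. FSHR, CYP19A1 and AMH had a signal under 60 on each of these 6 arrays. The 6 sperm markers summed to 837 to 1206 on morula and 169.6 to 199.7 on oocyte arrays, most of it ODF2 in morulae, and the 5 blood markers to 395 to 1672 and 127 to 236, most of it HBB in morulae. The 6 stromal markers summed to 201, 197 and 1732 on morula arrays 1, 2 and 3. Most of the last sum was DCN and LUM, at 1324 and 256, against 10.3 and 15.3 on morula array 1 and 35.9 and 5.78 on morula array 2. On morula array 3, VIM and COL1A1 were also the highest of the morula arrays, at 56.3 and 18.9. COL1A2 and COL3A1 were the lowest there, at 64.1 and 13.5. The part of these differences in the results below was not tested, except where values without an array are given.

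Between the oocyte and the morula, transcripts of 18 of the 38 pathway genes rose and none fell, while 20 missed the threshold. The 18 were HK1, GPI, PFKL, ALDOA, GAPDH, PGK1, PGAM1 and ENO1 of glycolysis, LDHB, the pyruvate dehydrogenase genes PDHA1, PDHB and DLD with pyruvate carboxylase (PC), and ACO1, IDH2, IDH3G, SUCLG1 and MDH2 of the citrate cycle. That is 47.4% higher and 0% lower, against 17.8% higher and 8.67% lower of all 9155 genes at 1 probe set per gene. The median change of the 38 genes was 1.80, and that of all genes 0.14. The 3 morula arrays all lay above the 3 oocyte arrays for 23 pathway genes and all below for 2, against 26.8% and 16.5% of all genes. The genes were listed with earlier results of these data known, so these counts describe the list and are not independent of it. Of the 13 genes with several probe sets, 1 had calls in opposite directions, 5 had some probe sets that passed and some that did not, and 7 had none that passed. Signals were above 1000 on all 15 arrays for PDHX, CS, IDH1 and SUCLG2, and under 100 on all for ALDOC, PGAM2 and PDK4. Each class of bacterial control signal was also fitted alone. Near background, oocyte array 1 stood against morula arrays 1 and 2, with 2 residual degrees of freedom. With control signal, oocyte arrays 2 and 3 stood against morula array 3, with 1 residual degree of freedom. Each fit leaves 1 array in a stage, so it gives sizes of change and no count of calls. The changes of the 18 genes were positive in both, and that of DLAT was -2.33 near background.

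**Figure D1:**
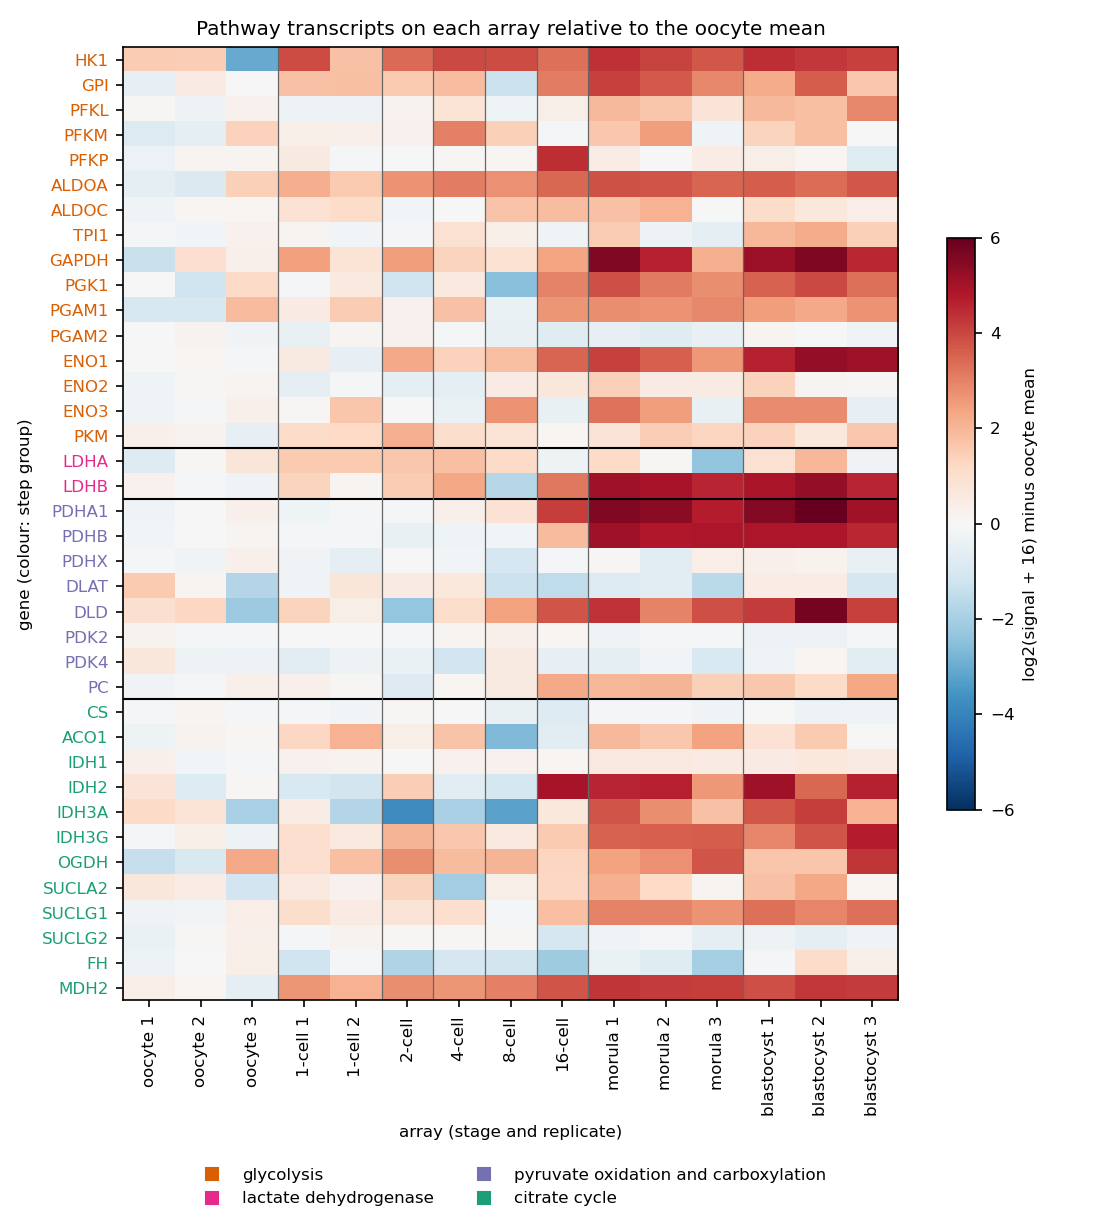
Log2(signal + 16) of 38 pathway genes on 15 arrays minus the mean of the 3 oocyte arrays, with arrays in order of stage and genes grouped by step; red is above and blue below the oocyte mean. LDHB, PDHA1, PDHB and MDH2 are red on all morula and blastocyst arrays, CS, IDH1, PDHX, PDK2 and SUCLG2 stay near white, and PFKP stands out on the 16-cell array alone.

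The first steps of glycolysis, which spend ATP to prepare the sugar for cleavage, rose at 4 of 8 measured genes. HK1, a hexokinase that phosphorylates glucose, had signals of 7825, 6345 and 4981 in morulae and 1081, 1045 and 31.6 in oocytes, a change of 4.04 (SE 1.07, adjusted p = 0.0246). Oocyte array 3 lay far under the other 2. HK1 did not pass without morula array 1 or 2 (adjusted p = 0.0751 and 0.0697).

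GPI, which turns glucose phosphate into fructose phosphate, had 5512, 4104 and 2346 in morulae and 208, 438 and 305 in oocytes, a change of 3.56 (SE 0.55, adjusted p = 0.00158). ALDOA, the aldolase that cleaves the sugar, had 6401, 6194 and 5055 in morulae and 287, 229 and 1213 in oocytes, a change of 3.70 (SE 0.54, adjusted p = 0.00109). For both genes each morula array lay above each oocyte array. The other measured aldolase, ALDOC, stayed under 100 on all arrays and did not pass, at 1.30 (95% interval 0.27 to 2.33, adjusted p = 0.0794), but it passed without morula array 3 (adjusted p = 0.00116).

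Of the 3 genes of phosphofructokinase, the regulated step of glycolysis, PFKL rose and the other two did not pass. PFKL had 434, 356 and 186 in morulae and 108, 78.9 and 126 in oocytes, a change of 1.45 (SE 0.44, adjusted p = 0.0445). It did not pass without oocyte array 1 or 2 or morula array 1 or 2 (adjusted p = 0.0965, 0.137, 0.15 and 0.135), nor with the replicate number as a block (adjusted p = 0.088). PFKM had 122, 245 and 22.4 in morulae and 10.0, 14.8 and 102 in oocytes, a change of 1.29 (95% interval -0.48 to 3.06, adjusted p = 0.307). Array 3 was the highest of the oocytes and the lowest of the morulae for this gene, and without the arrays numbered 3 its change was 2.75 (adjusted p = 0.00191). The 2 other probe sets of PFKM stayed under 40 on all arrays.

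PFKP had 53.8, 33.7 and 52.4 in morulae and 24.0, 41.3 and 40.1 in oocytes, a change of 0.29 (95% interval -0.49 to 1.08, adjusted p = 0.625), and 1056 on the 16-cell array. On the other 14 arrays it did not exceed 58.5. The 16-cell array also carried the stromal markers VIM at 1959, COL1A2 at 2432 and LUM at 1397, with a sum over 6 stromal markers of 5901 against 122 to 1732 on the others, of which morula array 3 was the highest, while COL1A1 and COL3A1 were at 8.43 and 25.9. Their part in the PFKP signal was not tested. TPI1, which interconverts the products of that cleavage, had 769, 201 and 167 in morulae and 236, 228 and 312 in oocytes, a change of 0.21 (95% interval -1.02 to 1.44, adjusted p = 0.843), with only morula array 1 above the oocytes.

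The later steps, which yield ATP and pyruvate, rose at 4 of 8 measured genes. PGK1, the kinase that makes the first ATP of the pathway, had 8662, 5178 and 4124 in morulae and 587, 241 and 1316 in oocytes, a change of 3.27 (SE 0.58, adjusted p = 0.00314). PGAM1, a phosphoglycerate mutase, had 7766, 7338 and 8500.0 in morulae and 575, 569 and 4248 in oocytes, a change of 2.79 (SE 0.68, adjusted p = 0.017). Oocyte array 3 was far above the other oocytes here, and PGAM1 did not pass without oocyte array 1 or 2 or morula array 1 (adjusted p = 0.0642, 0.0663 and 0.0506). The muscle form PGAM2 stayed under 20 on all arrays, with a change of -0.56 (95% interval -0.98 to -0.13, adjusted p = 0.0708), and was lower once arrays were centred on their medians (-0.74, adjusted p = 0.04).

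Among the 3 enolase genes, whose product makes phosphoenolpyruvate, ENO1 rose and ENO2 and ENO3 did not pass. ENO1, the form found in most tissues, had 3168, 2190.2 and 1100.0 in morulae and 164, 182 and 159 in oocytes, a change of 3.43 (SE 0.46, adjusted p = 6.94e-04). ENO2, the neuronal form, had 100.2, 44.0 and 44.1 in morulae and 20.7, 29.7 and 32.2 in oocytes, a change of 0.79 (95% interval -0.10 to 1.68, adjusted p = 0.21). ENO3, the muscle form, split the replicates: it had 14.7, 19.2 and 29.4 in oocytes, 333, 190.0 and 11.1 in morulae and 242, 248 and 10.4 in blastocysts, with a morula change of 1.77 (95% interval -0.62 to 4.16, adjusted p = 0.298). Without the arrays numbered 3, the change of ENO3 was 3.03 (adjusted p = 0.00526). PKM, the pyruvate kinase of the last step, had low signals of 88.9, 157 and 133 in morulae and 59.2, 55.5 and 27.3 in oocytes, a change of 1.18 (95% interval 0.32 to 2.04, adjusted p = 0.0605), although no morula array overlapped an oocyte array.

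GAPDH, the dehydrogenase in the middle of glycolysis, had 7124, 3894 and 658 in morulae and 44.0, 298 and 177 in oocytes, a change of 4.11 (SE 0.92, adjusted p = 0.0111). Its signals lay close to those of the control probe set in the middle of the transcript, which gave 7151, 4023 and 671 in morulae and 51.0, 307 and 176 in oocytes. The control probe set at the 3' end gave 11447, 10949.7 and 6708 in morulae and 522, 1297 and 4690.0 in oocytes, a smaller gap between the stages at each of arrays 1, 2 and 3. The part of this difference between the ends of the transcript in the change at the GAPDH probe set was not tested.

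**Figure D2:**
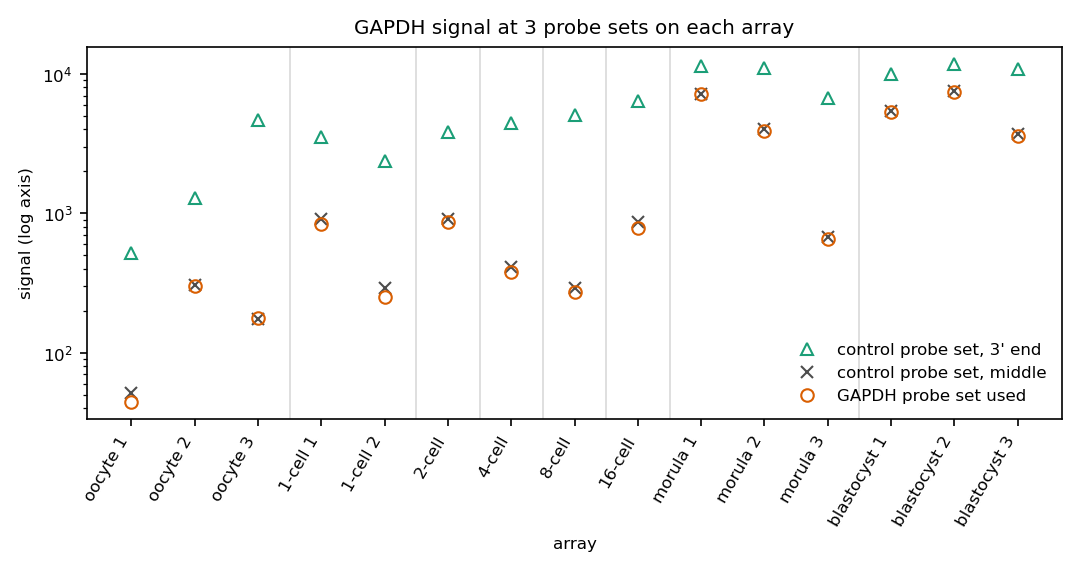
GAPDH signal (log axis) on each of 15 arrays at the probe set used (orange circles) and at the control probe sets of the middle (crosses) and the 3' end (triangles) of the transcript. The circles and crosses nearly coincide, and the triangles lie higher and spread less, from 522 on oocyte array 1 to 11805 on blastocyst array 2.

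The 2 lactate dehydrogenase genes followed different courses. LDHB, which encodes the heart-type subunit, had 9522, 8475 and 6677 in morulae and 319, 249 and 229 in oocytes, a change of 4.87 (SE 0.39, adjusted p = 4.46e-05), among the largest of the pathway genes. Its signals were 693 and 297 on the 1-cell arrays and 782, 1385, 70.2 and 2458 on the 2-cell, 4-cell, 8-cell and 16-cell arrays. The 8-cell array was thus under every oocyte array.

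LDHA, which encodes the muscle-type subunit, already had 1971, 3544 and 5762 in oocytes and reached 10319.8 and 10365 on the 1-cell arrays and 10448, 12089 and 7613 on the 2-cell, 4-cell and 8-cell arrays. It was at 2778 on the 16-cell array and 7937, 3580.5 and 651 on the morula arrays. Its morula change of -0.37 (95% interval -2.27 to 1.54, adjusted p = 0.82) did not pass, with morula arrays that differed more than 10-fold. A second LDHA probe set did pass, with 912, 812 and 988 in morulae and 78.3, 178 and 226 in oocytes, a change of 2.48 (SE 0.50, adjusted p = 0.00645). That probe set had only 26.6, 10.2 and 13.1 on the 2-cell, 4-cell and 8-cell arrays, where the first was above every oocyte array. The third LDHA probe set, at 1.45, did not pass (adjusted p = 0.0952).

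Of the 5 measured genes of the pyruvate dehydrogenase complex, PDHA1, PDHB and DLD rose and PDHX and DLAT did not pass. PDHA1, the catalytic alpha subunit, had 4859.6, 4300.1 and 2682 in morulae and 68.8, 83.3 and 111 in oocytes, a change of 5.23 (SE 0.40, adjusted p = 3.56e-05). PDHB, its beta partner, had 2403, 2018 and 2038 in morulae and 49.1, 54.2 and 65.5 in oocytes, a change of 4.91 (SE 0.32, adjusted p = 2.18e-05). In both, replicates were close and the stages far apart.

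The other probe sets of both subunits disagreed. The other 3 of PDHA1 had changes of 0.04, 0.10 and -0.36, and none passed. One of them gave 120.0, 54.0 and 12.8 in oocytes, 794 on the 8-cell array, 724 on the 16-cell array and 11.6, 25.9 and 239 in morulae. A second PDHB probe set passed in the other direction, with 21.8, 21.7 and 22.6 in morulae and 103, 72.2 and 88.5 in oocytes, a change of -1.44 (SE 0.24, adjusted p = 0.00263), and the third was at 0.17 (adjusted p = 0.58).

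DLD, the dehydrogenase shared by the pyruvate and oxoglutarate complexes, had 1803, 707 and 1335 in morulae and 161, 199 and 3.89 in oocytes, a change of 3.73 (SE 0.89, adjusted p = 0.0154). Oocyte array 3 and the 2-cell array, at 2.12, were far under the other oocyte and cleavage arrays, and DLD did not pass without morula array 1 (adjusted p = 0.0584). PDHX, which holds DLD in the complex, had 2999.5, 1823 and 3758 in morulae and 2662, 2493 and 3482 in oocytes and ran between 1431 and 3758 on all 15 arrays, with a change of -0.06 (95% interval -0.86 to 0.75, adjusted p = 0.944). DLAT, the acetyltransferase core, had 305, 335 and 164 in morulae and 1668, 619 and 149 in oocytes, a change of -1.04 (95% interval -2.82 to 0.74, adjusted p = 0.421), with oocyte arrays that spread more than 10-fold. Its other 2 probe sets, at 0.58 and -0.10, did not pass.

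Neither measured kinase of the complex passed. PDK2, which inactivates pyruvate dehydrogenase, had 853, 935 and 929 in morulae and 1162, 929.9 and 964 in oocytes and ran between 793 and 1274 on the 15 arrays, with a change of -0.16 (95% interval -0.83 to 0.51, adjusted p = 0.769). PDK4, the kinase induced by fasting in other tissues, stayed under 50 at each of its 3 probe sets on all arrays, with a change of -0.53 (95% interval -1.25 to 0.19, adjusted p = 0.306) at the one used. PC, which feeds the cycle by turning pyruvate into oxaloacetate, had 2036, 2094 and 1382 in morulae and 426, 467 and 609.5 in oocytes, a change of 1.83 (SE 0.40, adjusted p = 0.00967). The other 2 probe sets of PC, at -0.34 and -0.34, did not pass, and the mean of the 3 did not either (0.39, adjusted p = 0.298).

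In the citrate cycle, 5 of 12 measured genes rose, and others had high signals at every stage. CS, the citrate synthase that starts the cycle, had 9471, 9685 and 8731 in morulae and 9501, 11434 and 9739 in oocytes and lay between 5875 and 11434 on all arrays, a change of -0.13 (95% interval -0.55 to 0.28, adjusted p = 0.681). Its lowest value was that of the 16-cell array. A second CS probe set gave 39.5, 70.0 and 39.5 in oocytes, 251 and 719.9 on the 1-cell arrays and 670.2 and 679 on the 2-cell and 4-cell arrays, and did not pass in 1-cell embryos (2.79, adjusted p = 0.0997).

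Isocitrate is oxidized by an NAD-dependent mitochondrial enzyme, built from IDH3A, IDH3B and IDH3G, and by the NADP-dependent enzymes IDH1 of the cytosol and IDH2 of the mitochondrion. IDH2 had 2690.4, 2933 and 683 in morulae and 178, 49.3 and 104 in oocytes, a change of 3.95 (SE 0.67, adjusted p = 0.00267). IDH3G, a regulatory subunit, had 642, 658 and 673 in morulae and 38.0, 55.2 and 29.9 in oocytes, a change of 3.59 (SE 0.46, adjusted p = 5.63e-04). In both genes every morula array lay above every oocyte array.

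The catalytic subunit IDH3A had 7767, 3888 and 1939.8 in morulae and 1253, 984 and 132 in oocytes and did not pass, with a change of 2.77 (95% interval 0.62 to 4.92, adjusted p = 0.0745). Oocyte array 3 was the lowest of its stage and morula array 3 the lowest of its own, and with the replicate number as a block IDH3A passed (adjusted p = 0.00586). IDH1 had 9904, 9703 and 9361 in morulae and 8014, 5909.9 and 5963 in oocytes, a change of 0.56 (95% interval 0.11 to 1.00, adjusted p = 0.0826) in which the stages did not overlap. A second IDH1 probe set passed with a far larger change, at 5304, 4202 and 893 in morulae and 39.8, 40.2 and 141 in oocytes, 5.11 (SE 0.70, adjusted p = 7.92e-04), and the third was at 1.18 (adjusted p = 0.266).

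ACO1, an aconitase of the cytosol that also binds RNA to regulate iron metabolism, had 1445, 1147 and 2006 in morulae and 285, 412 and 396 in oocytes, a change of 2.01 (SE 0.48, adjusted p = 0.0155). It did not pass without oocyte array 1 (adjusted p = 0.0552). OGDH, the first subunit of the oxoglutarate dehydrogenase complex, had 299, 379 and 792 in morulae and 7.16, 15.9 and 270.3 in oocytes, a change of 2.96 (95% interval 0.71 to 5.22, adjusted p = 0.0691). Its oocyte array 3 was far above the other 2, and OGDH passed without that array (4.10, adjusted p = 0.00764) and with the replicate number as a block (adjusted p = 0.00892).

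Succinyl-CoA ligase pairs the alpha subunit SUCLG1 with a beta subunit that makes it form ATP (SUCLA2) or GTP (SUCLG2). SUCLG1 rose, with 360.3, 358 and 295 in morulae and 25.8, 26.0 and 45.9 in oocytes, a change of 2.88 (SE 0.33, adjusted p = 2.97e-04). SUCLA2 had 7633, 3971 and 1947 in morulae and 2797, 2356 and 785 in oocytes, a change of 1.16 (95% interval -0.40 to 2.72, adjusted p = 0.297), and the ranges overlapped. SUCLG2 had 4135, 4354 and 3313 in morulae and 3642, 5041 and 5848 in oocytes and ran between 2364 and 5848 on the 15 arrays, a change of -0.28 (95% interval -0.89 to 0.33, adjusted p = 0.537).

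FH, which hydrates fumarate, had 683, 555 and 218 in morulae and 731, 899 and 1182 in oocytes, a change of -1.04 (95% interval -2.25 to 0.16, adjusted p = 0.222), with all morula arrays under all oocyte arrays. A second probe set of FH stayed under 30 on all arrays. MDH2, the mitochondrial malate dehydrogenase that closes the cycle, had 12599, 11973 and 11556 in morulae and 849.5, 686 and 435 in oocytes, a change of 4.21 (SE 0.30, adjusted p = 2.73e-05), while its second probe set, at 0.60, did not pass (adjusted p = 0.659).

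**Figure D3:**
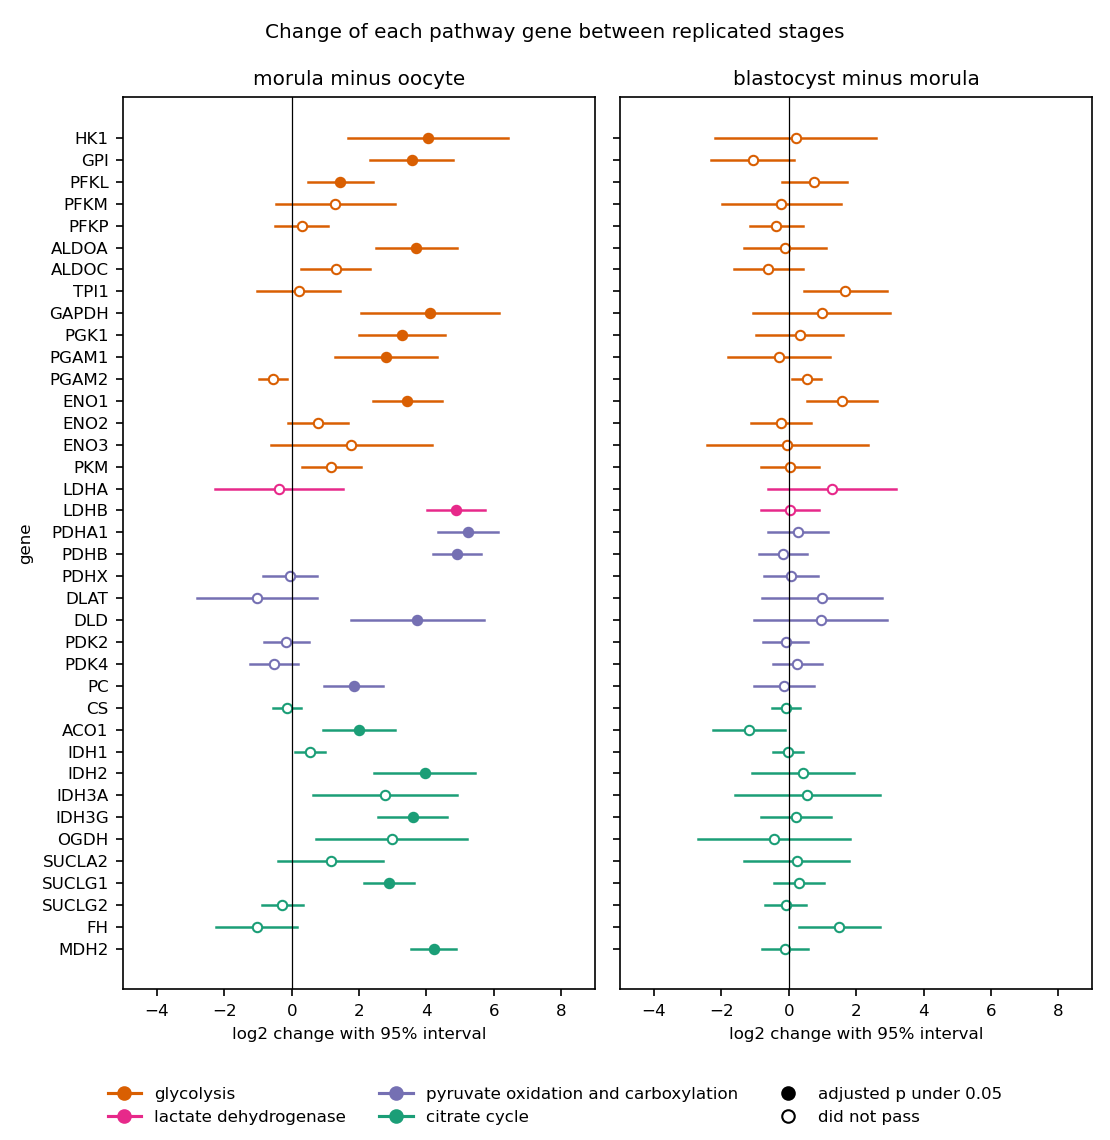
Log2 change of each of 38 pathway genes with its 95% interval from limma (horizontal lines), for morulae minus oocytes (left, 3 arrays each) and blastocysts minus morulae (right, 3 arrays each); filled points passed at an adjusted p under 0.05. On the left 18 points are filled, all above 0, with PDHA1 highest at 5.23, and on the right none is filled.

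The citrate cycle and glycolysis were set against each other by the share of genes that rose and by their median change. In morulae against oocytes 5 of 12 citrate cycle and 8 of 16 glycolysis genes rose, with median changes of 2.39 for the citrate cycle and 1.61 for glycolysis. The difference of 0.78 was about as large as its SD over the 3 morula arrays (0.75). It was -0.02 without oocyte array 3, -0.22 without morula array 3 and -0.65 without both of these and blastocyst array 3. With all 12 citrate cycle genes, the sign of the difference thus depended on oocyte array 3 and morula array 3. Without the cytosolic enzymes ACO1 and IDH1 the citrate cycle median change was 2.83 and the difference 1.22, so it also depended on which genes are counted. Set against the oocyte mean array by array, the citrate cycle median was 2.27, 2.18 and 2.10 and the glycolysis median 2.35, 2.51 and 1.02 on morula arrays 1, 2 and 3. Without ACO1 and IDH1 the citrate cycle median was 2.69, 2.75 and 2.19, higher than that of glycolysis on each array and lowest on array 3. On morula array 3, CS, IDH1, IDH2, IDH3A, SUCLA2, SUCLG1, SUCLG2, FH and MDH2 were the lowest of the 3 morula arrays. Only ACO1, IDH3G and OGDH were the highest on it. The 8 genes of pyruvate oxidation and carboxylation, of which 4 rose, had medians of 1.04, 0.97 and 0.92 on morula arrays 1, 2 and 3. All 9155 genes had 0.16, 0.19 and 0.10. On the blastocyst arrays the citrate cycle median was 1.71, 1.97 and 1.28 and the glycolysis median 2.12, 2.26 and 1.61, with glycolysis the higher on each array, but without ACO1 and IDH1 the citrate cycle median was 2.35, 2.62 and 2.69, the higher on each array. From morula to blastocyst the median change of the citrate cycle was 0.09 and that of glycolysis -0.00, a difference of 0.09 that was smaller than its SD over the 3 blastocyst arrays (0.13) and ran from -0.31 to 0.13 when single arrays were left out.

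**Figure D4:**
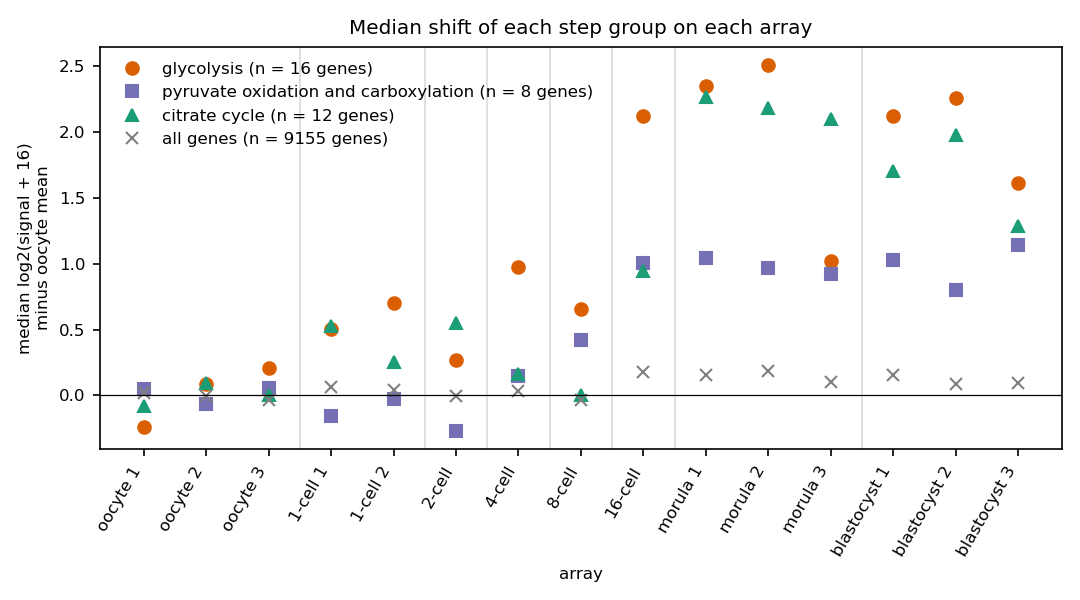
Median over the genes of each step group of log2(signal + 16) minus the oocyte mean, on each of 15 arrays in order of stage; points are single arrays and n is the number of genes. Glycolysis and the citrate cycle lie close together on morula arrays 1 and 2, glycolysis is the lower on morula array 3, and the median of all genes stays under 0.2 throughout.

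The cleavage stages were examined for when these levels left the oocyte range. In 1-cell embryos against oocytes 1 of 38 pathway genes passed, MDH2, against 0.35% of all genes. MDH2 had 4115 and 2762 in 1-cell embryos and 849.5, 686 and 435 in oocytes, a change of 2.38 (SE 0.34, adjusted p = 0.0332). It stayed at 4441, 4054 and 5229.8 on the 2-cell, 4-cell and 8-cell arrays and was at 8866 on the 16-cell array. MDH2 did not pass without 1-cell array 1 or 2 or oocyte array 1 or 2 (adjusted p = 0.0835, 0.0961, 0.0674 and 0.0559), and its change then ran from 2.10 to 2.67. ALDOA had 1999 and 1337 in 1-cell embryos and 287, 229 and 1213 in oocytes, a change of 1.87 (95% interval 0.53 to 3.22, adjusted p = 0.353) that passed without oocyte array 3 (2.60, adjusted p = 0.0236). At an unadjusted p under 0.05, 6 of 38 were higher and none lower, against 7.06% of all genes higher. With 2 arrays against 3, both 1-cell arrays lay above all oocytes for 10 pathway genes and below for 4, against 14.4% and 8.18% of all genes.

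On the single cleavage arrays the step groups differed in how many genes lay above the highest oocyte array. In the citrate cycle these were 7, 4, 2 and 5 of 12 on the 2-cell, 4-cell, 8-cell and 16-cell arrays. In glycolysis they were 7, 9, 9 and 11 of 16, and in pyruvate oxidation and carboxylation 0, 0, 4 and 4 of 8. Over all genes the shares were 30.2%, 30.0%, 28.6% and 40.6%. Each of these stages had 1 array, so the differences have no replicate check.

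Of the 18 genes that rose by the morula, 17 were above the highest oocyte array in the 16-cell embryo and 7 had reached the lowest morula array, against 86.4% and 49.6% of the 1634 genes of the whole annotation that rose. The exception was ACO1, at 224. On the 8-cell array 8 of the 18 were above the highest oocyte array and 1, HK1, had reached the lowest morula array. The shares of the 1634 genes were 42.3% and 12.8% there.

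Several courses can be read from single genes. PDHA1 was at 76.9, 109, 169 and 1822 on the 2-cell, 4-cell, 8-cell and 16-cell arrays, and PDHB at 36.4, 43.6, 47.8 and 252. The 16-cell value of PDHB was thus far under its lowest morula array, and that of IDH2, 3541 after 39.5 on the 8-cell array, was above its highest. The part of the stromal markers on the 16-cell array, given above, in its values and counts was not tested.

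HK1 was above every oocyte array from the 1-cell embryo on, with 5766 and 1262 on the 1-cell arrays and 3966, 5961, 5709 and 3699.9 on the 4 single arrays. ENO1 was at 869, 469, 633 and 2031. PGK1, GPI, LDHB and ACO1 were lower on the 8-cell array than on any oocyte array, at 88.6, 114, 70.2 and 44.3, against 884, 1127, 1385 and 1224 on the 4-cell array. On the 8-cell array 11 of the 38 pathway genes lay below the lowest oocyte array, a share similar to the 2752 of all 9155 genes. UCHL1, an oocyte marker, was also low on that array, at 61.3 against 6831 on the 4-cell array, whereas ZP2 was at 9661 against 10794. IDH3A had 25.3, 132 and 46.1 on the 2-cell, 4-cell and 8-cell arrays, close to or under its lowest oocyte array of 132.

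**Figure D5:**
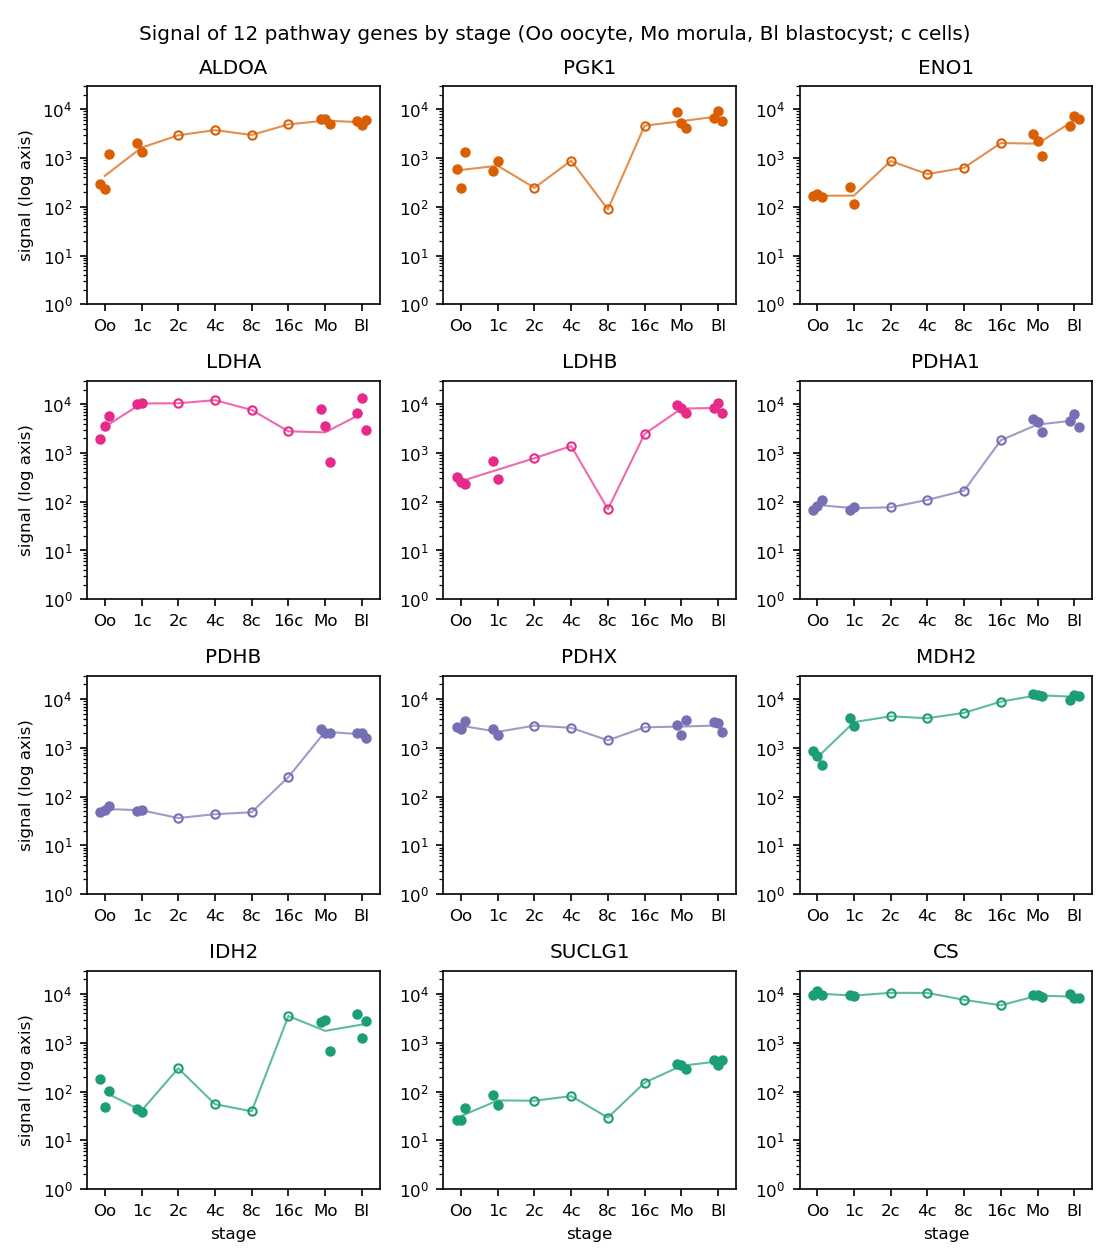
Signal (log axis) of 12 pathway genes by stage, with a point per array (filled in stages with replicates, open in stages with 1 array) and a line through the geometric mean of each stage. PDHA1, PDHB and IDH2 stay under their lowest morula array up to the 8-cell array, MDH2 and ALDOA lie above all their oocyte arrays from the 1-cell stage, and CS and PDHX stay level.

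From the morula to the blastocyst no pathway gene passed, against 0.262% of all genes. At an unadjusted p under 0.05, 4 of 38 were higher and 1 lower, against 9.31% of all genes. No alternative fitted with limma that left more than 1 array in each stage called a pathway gene. With the compared stages alone, the replicate number as a block or the arrays near background alone, however, 0 of all 24016 probe sets were higher and 0 lower. The median change was 0.06 over the 38 genes and -0.04 over all genes. The blastocyst arrays all lay above the morula arrays for 3 of the 38 genes and all below for 2, against 7.22% and 9.77% of all genes. ENO1 had 4629, 7184 and 6257 in blastocysts and 3168, 2190.2 and 1100.0 in morulae, a change of 1.58 (95% interval 0.55 to 2.61, adjusted p = 0.35) with no overlap. FH had 856, 2014 and 1168 in blastocysts and 683, 555 and 218 in morulae, a change of 1.50 (95% interval 0.29 to 2.70, adjusted p = 0.491), also with no overlap. ACO1 had 677, 1092 and 362 in blastocysts and 1445, 1147 and 2006 in morulae, a change of -1.19 (95% interval -2.25 to -0.12, adjusted p = 0.576), with all blastocyst arrays lower. The 95% intervals of the change ran from -0.82 to 0.90 for LDHB, from -0.78 to 0.56 for MDH2 and from -0.90 to 0.54 for PDHB.

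In blastocysts against oocytes 19 of 38 pathway genes rose and none fell, 50.0% against 18.1% of all genes higher and 9.0% lower. This comparison uses the same oocyte arrays as that of the morula. TPI1, with 1075, 1260.0 and 720.4 in blastocysts and 236, 228 and 312 in oocytes, passed at 1.89 (SE 0.55, adjusted p = 0.0378), whereas its change from morula to blastocyst was 1.68 (95% interval 0.45 to 2.91, adjusted p = 0.432). TPI1 did not pass without oocyte array 1 or 2 or blastocyst array 1 or 2 (adjusted p = 0.0991, 0.104, 0.105 and 0.115) or with the replicate number as a block (adjusted p = 0.058). IDH3A had 7573, 10125 and 2404 in blastocysts and 1253, 984 and 132 in oocytes, 3.32 (SE 0.96, adjusted p = 0.0369), and did not pass without oocyte array 2 or 3 or blastocyst array 1 or 2 (adjusted p = 0.0552, 0.0907, 0.11 and 0.123).

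ENO1 had the widest gap to the oocyte among the glycolysis genes apart from GAPDH, at 5.01 (SE 0.46, adjusted p = 9.82e-05), and PDHA1, with 4559, 6419 and 3389 in blastocysts, the largest of all 38, at 5.51 (SE 0.40, adjusted p = 3.11e-05). PKM missed the threshold at 1.22 (95% interval 0.35 to 2.08, adjusted p = 0.0538) and passed without blastocyst array 2 (adjusted p = 0.0383). OGDH, at 2.53 (95% interval 0.28 to 4.79, adjusted p = 0.115), passed without oocyte array 3 (adjusted p = 0.0135), and OGDH and SUCLA2 passed with the replicate number as a block (adjusted p = 0.0161 and 0.0304). HK1 did not pass without blastocyst array 1 or 2 (adjusted p = 0.0599 and 0.0561). PGAM1 did not pass without any 1 of oocyte arrays 1 and 2 and blastocyst arrays 1 to 3, with adjusted p of 0.064 to 0.101.

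Other genes of the pathway were taken from a list of 48 carriers, isozymes, regulators and shuttle enzymes, of which 40 had a probe set. The probe set with the highest mean signal was used here too. Other probe sets, such as those of ME1, ME3, PFKFB2, BSG, SLC25A11 and GOT2, were not compared with it. In morulae against oocytes 12 rose and 5 fell, with a median change of 0.00, against 17.8% higher and 8.67% lower of all genes and a median of 0.14. The counts of its smaller lists stand against the same shares. Of 9 carriers and their partners 5 rose and 1 fell. SLC2A8, a glucose transporter described in mouse blastocysts, had 4176, 4694 and 2488 in morulae and 252, 97.7 and 47.4 in oocytes, a change of 4.88 (SE 0.60, adjusted p = 4.37e-04). BSG, the chaperone of the lactate carriers, had 9672, 8629 and 4535 in morulae and 472, 503 and 342 in oocytes, 4.01 (SE 0.35, adjusted p = 7.43e-05). SLC2A1, the basal glucose transporter, rose by 2.70 (SE 0.49), the lactate and pyruvate carrier SLC16A1 by 1.86 (SE 0.49) and the mitochondrial pyruvate carrier subunit MPC2 by 1.58 (SE 0.40). MPC1, its partner, had 4354, 2204 and 1103 in morulae and 143, 623 and 736 in oocytes and did not pass, at 2.38 (95% interval 0.72 to 4.05, adjusted p = 0.0506). SLC2A4, the insulin-dependent glucose transporter, fell by 0.76 at signals under 120.

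Of 13 other isozymes and regulators of glycolysis none rose and 1 fell. PFKFB2, which makes and removes the activator of phosphofructokinase, had 73.7, 58.0 and 18.0 in morulae and 748, 876 and 158 in oocytes, a change of -3.01 (SE 0.68, adjusted p = 0.0119). LDHC, the lactate dehydrogenase of the testis, had 138, 103 and 21.6 in oocytes, 1587 on the 2-cell array and 16.1, 16.5 and 9 in morulae, and did not pass, at -1.57 (95% interval -2.69 to -0.46, adjusted p = 0.0538). HKDC1, a hexokinase-like enzyme, had 792, 411 and 216 in oocytes, 5258 on the 2-cell array and 351, 109 and 76.6 in morulae, and did not pass either, at -1.41 (95% interval -3.27 to 0.45, adjusted p = 0.287). The 3 measured genes of pyruvate dehydrogenase phosphatases and of a further kinase did not pass.

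Of 15 other citrate cycle and shuttle genes 7 rose and 3 fell. The 3 that fell were all malic enzymes, which turn malate into pyruvate. ME1, the cytosolic form, had 20.3, 8.63 and 6.11 in morulae and 1715, 2477 and 529.6 in oocytes, a change of -5.62 (SE 0.57, adjusted p = 1.57e-04), the largest of the 40 genes, and ME2, a mitochondrial form, had 193, 96.4 and 56.7 in morulae and 1080.4, 988 and 2758 in oocytes, -3.60 (SE 0.71, adjusted p = 0.00597). ME3 fell by 0.93 at signals under 80. SDHB, the iron-sulphur subunit of succinate dehydrogenase, had 4990.0, 4767 and 2185 in morulae and 34.5, 75.6 and 206 in oocytes, a change of 5.22 (SE 0.86, adjusted p = 0.00224). The 4 genes of succinate dehydrogenase all rose, SDHA by 1.95, SDHB by 5.22, SDHC by 1.68 and SDHD by 1.97. SLC25A1, the mitochondrial citrate carrier, rose by 2.99 (SE 0.58) and SLC25A11, the oxoglutarate carrier, by 2.08 (SE 0.41). GOT1, the cytosolic aminotransferase of the malate-aspartate shuttle, rose by 2.17 (SE 0.43), and GOT2, its mitochondrial form, did not pass, at 0.90 (95% interval 0.26 to 1.54, adjusted p = 0.0535). No gene of this list passed in 1-cell embryos against oocytes or in blastocysts against morulae. There 7 and 3 of the 40 had an unadjusted p under 0.05 with limma, against 9.02% and 9.31% of all genes.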

How the data were processed

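The deposited values are Affymetrix intensity signals, 1 per probe set and array on a linear scale. What the authors did to make and scale them is not given in the sources used here. Array medians ran from 39.7 to 62.1. Of 24128 probe sets, 112 controls were left out of the tests. Names came from the platform annotation, updated by gene ID through RefSeq's ARS-UCD2.0 table: 13292 probe sets had 1 symbol, 86 several and 10638 none.

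Log2(signal + 16) was fitted with limma 3.58.1 in R 4.3.3 (lmFit, eBayes with an intensity trend, a mean per stage over all 15 arrays, 7 residual degrees of freedom). Moderated 2-sided p-values were Benjamini-Hochberg adjusted over 24016 probe sets. They set each change against the spread between replicate arrays within stages, moderated over all probe sets. The number of arrays limits the precision. The fit was tested on simulated data.

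Genes and marker lists were chosen with earlier results of these data known. Every listed gene is accounted for, and values per array are given for the highest and the most changed genes of each step group and for isozyme families. They are also given for those of the 38 genes whose probe sets disagree.

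The replicate numbers were checked for pairing. The correlations of their deviations from the stage mean were 0.142, 0.107 and 0.182 between oocytes and morulae. They were 0.278, 0.276 and 0.285 between oocytes and blastocysts and 0.195, 0.106 and 0.306 between morulae and blastocysts. The array titles give a replicate number and no pairing, so the replicate number was a block in an alternative only. In these stages the arrays numbered 3 all gave bacterial control signal and those numbered 1 did not, so the block overlaps that class. Arrays with different numbers correlated as much in places (0.155 for oocyte 2 with morula 1, 0.304 for morula 1 with blastocyst 2). Among these stages, array 3 of one and array 1 or 2 of another correlated negatively throughout. The pattern is thus mainly that of the arrays numbered 3 against the others. Deviations from a stage mean cancel out within the stage, which forces part of the negative signs. For 1-cell array 2 the correlations with array 3 of oocytes, morulae and blastocysts were positive, at 0.192, 0.175 and 0.16. For 1-cell embryos and oocytes the 2 correlations were 0.183 and -0.115, and the block was run for them as well. Alternatives were other scalings, offsets, filters, variance models and choices of probe set, fewer stages or arrays, the replicate number as a block and the class of bacterial control signal as a block or alone, the last chosen after seeing the data.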

Additional observations from a re-analysis of the deposited data

How the results depend on the processing

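In none of the alternatives run did a passing change reverse. In morulae and in blastocysts against oocytes, 18 and 19 pathway genes were called. These counts ran from 14 to 19 and from 15 to 19 when single arrays were left out and were 23 and 25 without the arrays numbered 3. Calls over all probe sets then also grew, from 2830 higher and 1720 lower to 4336 and 2766 in morulae. In blastocysts they grew from 2856 and 1768 to 4152 and 2654. Each class of bacterial control signal alone, a choice made after seeing the data, leaves 1 oocyte or 1 morula and blastocyst array. With control signal 1 residual degree of freedom is left, so no count is given for these 2 comparisons. The single 1-cell call became 0 to 2 when single arrays were left out and 3 without the arrays numbered 3. It became 0 with the replicate number as a block and with all probe sets of a gene averaged. With the compared stages alone it was also 0, but there 0 of all 24016 probe sets were higher and 0 lower. Each class of bacterial control signal alone leaves a single 1-cell array, so no count is given there. The difference of medians, citrate cycle minus glycolysis, ran from -0.22 to 1.11 in morulae against oocytes when single arrays were left out and was -0.65 without the arrays numbered 3, 0.16 with an offset of 1 and 0.11 without the dimmest 33% of probe sets. In blastocysts against morulae it ran from -0.31 to 0.13, was -0.12 without the arrays numbered 3 and was 0.23 with probe sets averaged. The cause of these shifts was not tested. With the replicate number as a block the count was 19 in morulae, where PFKL was lost and IDH3A and OGDH were gained, and 20 in blastocysts, where TPI1 was lost and OGDH and SUCLA2 were gained. It changed no other call among the pathway genes in these comparisons. PFKL was also lost under quantile normalization, centring and an offset of 64, and TPI1 in blastocysts under the first 2 of these. Without the dimmest 33% of probe sets 21 pathway genes passed in both comparisons. Over all probe sets 2830 were higher and 1720 lower in morulae against oocytes, against 2431 and 2302 after quantile normalization and 2511 and 2269 after centring arrays on their medians, where the median change of all probe sets was -0.06 and -0.14, against 0.04 as deposited. No stage with 1 array can be tested, and low signals have no stated background.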
